A study of Mus musculus with 12 samples.

Results

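The genes described are those of the cytosolic ribosomal proteins, the protein part of the ribosomes that translate nuclear messages. A gene was counted as a member where its symbol is Rpl or Rps followed by a number, with at most one of the letters a, l, x or y and a further number, or is Rplp0, Rplp1, Rplp2 or Rpsa. The rule uses names only and found 83 of the 41325 genes in the deposited tables, 51 of the large and 32 of the small subunit. Their counts came from RNA sequencing of IMG cells, a mouse microglial line made to grow without limit, labelled wild type and C57Bl6/J and all taken at the same passage. The cells had a scramble control, oAb or fAb for 8 h, with 4 libraries in each group, and all groups share the line, the strain and the passage. The design text names both treatments as amyloid beta, the peptide of Alzheimer plaques, but attaches the word fibrillar to oAb and oligomeric to fAb, so both keep their abbreviations here. The line is a single one, and nothing says that its replicates were separate cultures, so p-values measure only the spread between these libraries, which may be technical. In bulk RNA, fewer cells with a transcript and less of it per cell cannot be told apart.

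The small subunit of the ribosome reads the message and the large subunit joins amino acids, and each holds ribosomal RNA and its own set of proteins. Messages of ribosomal proteins are abundant and short, and most begin with a C followed by a run of pyrimidines, the terminal oligopyrimidine or TOP start, through which the kinase complex mTORC1 controls their translation. Several members have paralogs that can take their place in the ribosome, and the mouse genome holds many processed copies of these genes, so that reads may be shared between a gene and its copies.

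To show what the TOP start looks like in the members, 30 bases around the listed start are printed for 5 of them, 10 bases before it and 20 from it on. The windows are RefSeq's, on build GRCm38.p6, and lie for Rpl28 at chr7:4792955-4792984 (plus strand), Rpl35 at chr2:39005112-39005141 (minus strand), Rplp2 at chr7:141447641-141447670 (plus strand), Rps21 at chr2:180257369-180257398 (plus strand) and Rps6 at chr4:86857348-86857377 (minus strand). Capitals mark the pyrimidine run from the listed start.
Rpl28: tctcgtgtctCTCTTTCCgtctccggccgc
Rpl35: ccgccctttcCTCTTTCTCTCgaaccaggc
Rplp2: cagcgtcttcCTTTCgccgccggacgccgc
Rps21: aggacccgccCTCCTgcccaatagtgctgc
Rps6: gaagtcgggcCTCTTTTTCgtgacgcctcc
RefSeq windows matched 63 of the 83 members by symbol. A C followed by 4 pyrimidines, C or T, stood exactly at a listed start on the sense strand in 13 of them (20.6%), against 813 of all 27025 genes with a window (3.0%). Anywhere from 10 bases before to 15 bases after the start, those letters were found in 61.9% of the matched members and in 34.4% of all genes. A match describes these letters only, and a start listed a few bases off would miss it.

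The libraries held 13638721 to 18124419 counts. Of 11 microglia and macrophage markers, 10 were above 1 normalised CPM in every scramble library (C1qa was not), and the list summed to 3535 to 4419.7, 3157 to 3552 and 2968 to 3391 normalised CPM in scramble, oAb and fAb. Normalised CPM are counts relative to the library's total, scaled by TMM, which sets libraries to a common level through the bulk of their genes. Neuron, astrocyte, endothelial and fibroblast lists summed to at most 12.7 in any library, with Rbfox3, Snap25, Syt1, Aqp4, Cldn5 and Pdgfra at 0 throughout. The neuron sum was 0.941 to 3.51 in scramble, 10.3 to 12.7 in oAb and 9.79 to 12.2 in fAb, all of it at Map2, and the fibroblast sum 0 to 0.157, 2.47 to 3.61 and 1.88 to 2.78. The oligodendrocyte list, with 1 of 4 markers (Mbp) above 1 normalised CPM and Olig2 and Mog at 0, summed to 91.1 to 124.6, 43.4 to 49.1 and 46.1 to 51.6. The part of these markers in the results on ribosomal proteins was not tested. Scramble library 3 stood apart from the other scramble libraries, and the libraries split by how counts divide between Timm23 and its near copy Gm10273. At Timm23 stood 94.6% to 98.3% of the pair's counts in scramble libraries 2, 3 and 4 and oAb libraries 1 and 2, the Timm23 set, and 17.5% to 38.5% in scramble library 1, oAb libraries 3 and 4 and every fAb library, the Gm10273 set. The split was found in the counts, no label gives a batch, and 1 scramble library is all that the Gm10273 set holds of the controls. Counts of members and related lists that move with either are also given with scramble library 3 left out or with the set as a term in the fit.

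The members together took a smaller share of the counts in every treated library than in any scramble library. The share was 7.01, 7.54, 11.9 and 7.61% in scramble libraries 1 to 4, 5.64, 5.86, 5.8 and 5.91% in the oAb libraries and 5.24, 5.23, 5.69 and 5.65% in the fAb libraries. The means were 8.52% ± 2.28, 5.80% ± 0.115 and 5.45% ± 0.253 (SD, n = 4 each), and 7.38% ± 0.327 (SD, n = 3) for scramble without library 3. Scramble library 3 alone was above the narrow band of the other scramble libraries. Large and small subunit genes kept nearly the same proportion, since the ratio of their counts was between 1.34 and 1.40 in every library. On the scale of normalised CPM the separation was not complete. The members' summed level was 59869, 64433, 117704.5 and 67715.5 in the scramble libraries, 58968.5, 62087, 63319 and 64647 in the oAb libraries and 53423, 52899, 60711 and 60465 in the fAb libraries. On this scale the oAb libraries overlapped scramble libraries 1 and 2, 2 of the 4 fAb libraries were above scramble library 1, and scramble library 3 was far above all others.

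**Figure D1:**
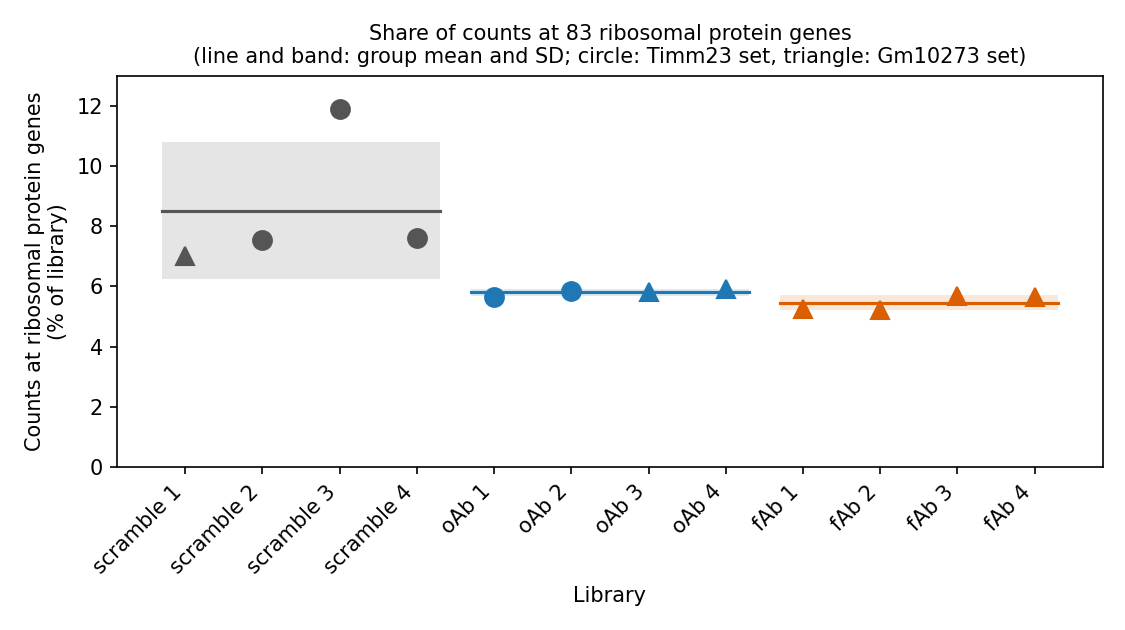
Share of each library's counts at the 83 ribosomal protein genes (percent, y axis) in the 12 libraries (x axis), with the group mean and SD as line and band, circles for libraries of the Timm23 set and triangles for the Gm10273 set. Scramble library 3 stands at 11.9%, the other scramble libraries at 7.01% to 7.61% and the treated libraries at 5.23% to 5.91%.

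After oAb, few ribosomal protein genes passed the test, while a large part of all genes did. Of the 83 members 80 passed the filter on low counts, and of these 1 was higher (Rpl7l1) and 2 were lower (Rpl22 and Rpl3) at an adjusted p under 0.05 in edgeR. Over all 11033 genes tested, 52.2% were called, 25.2% higher and 27.0% lower, so the members' counts lie far below the background. The log2 fold changes of the 80 members ran from -0.79 to 0.85 with a median of -0.30, and 77 of the 80 were below 0, while the median over all genes tested was -0.07. The medians of large and small subunit genes were close, -0.29 over 48 and -0.31 over 32. Not overlapping between the groups' libraries were 1 member higher and 4 lower, against 26.2% higher and 25.0% lower over all genes tested. Without scramble library 3 the members' median was -0.03 beside -0.05 for all genes, and 45 of 80 were below 0. There 2 members were higher and 3 lower beside 31.4% and 32.9% of all genes. Rpl22 and Rpl3 were among those 3, with Rpl10a, and Rpl24 joined Rpl7l1. The 2 lower calls became 11 without scramble library 1, 1 without scramble library 4 and 0 without any single oAb library. Scaling by the upper quartile in place of TMM gave 0 higher and 12 lower, and there 34.6% of all genes called were higher against 48.2% under TMM. It moved the median of all genes to -0.24, and the members' median minus that of all genes was -0.23 under both scalings.

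After fAb more members passed the test, most of them lower. Of the 80 members tested 2 were higher (Rpl7l1 and Rpl10) and 14 lower, against 56.3% called over all 11074 genes tested, 27.6% higher and 28.8% lower. The fold changes ran from -1.75 to 1.09 with a median of -0.37, 77 of 80 were below 0, and the median over all genes was -0.04. Of the 14, 11 belong to the large subunit (among them Rpl3, Rpl10a, Rpl13, Rpl22, Rpl27, Rpl27a, Rpl28, Rpl36, Rplp1 and Rplp2) and 3 to the small (Rps2, Rps21 and Rps26). Rpl10a, Rpl28, Rps2 and Rps21 are named here after their values were seen, at log2 fold changes from -0.93 to -0.65. Non-overlapping libraries were found for 2 members above and 18 below scramble, against 27.4% and 28.0% of all genes. Without scramble library 3 the median was -0.10 and 16 members were lower, 10 of them among the 14, beside 33.8% of all genes. With the library set as a term in the fit the median was -0.02, no member was lower and 1 was higher (Rpl7l1), beside 16.5% and 18.2% of all genes. In it 1 member had an unadjusted p under 0.05. That fit sets the 4 fAb libraries against scramble library 1, the only control of their set. The 14 lower calls became 31 without scramble library 1, 7 without scramble library 4, and 3, 2, 5 and 4 without fAb libraries 1, 2, 3 and 4 in turn. In these fits 3444, 2920, 2822, 2854, 2806 and 2839 of all genes were lower, against 3184 with all libraries. The 14 became 48 under upper quartile scaling, where 2273 of all genes were higher and 4361 lower. There 34.3% of all genes called were higher against 48.9% under TMM. There the median of all genes was -0.23 and the members' median minus that of all genes was -0.33, as under TMM. Both treatments were set against the same 4 scramble libraries.

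**Figure D2:**
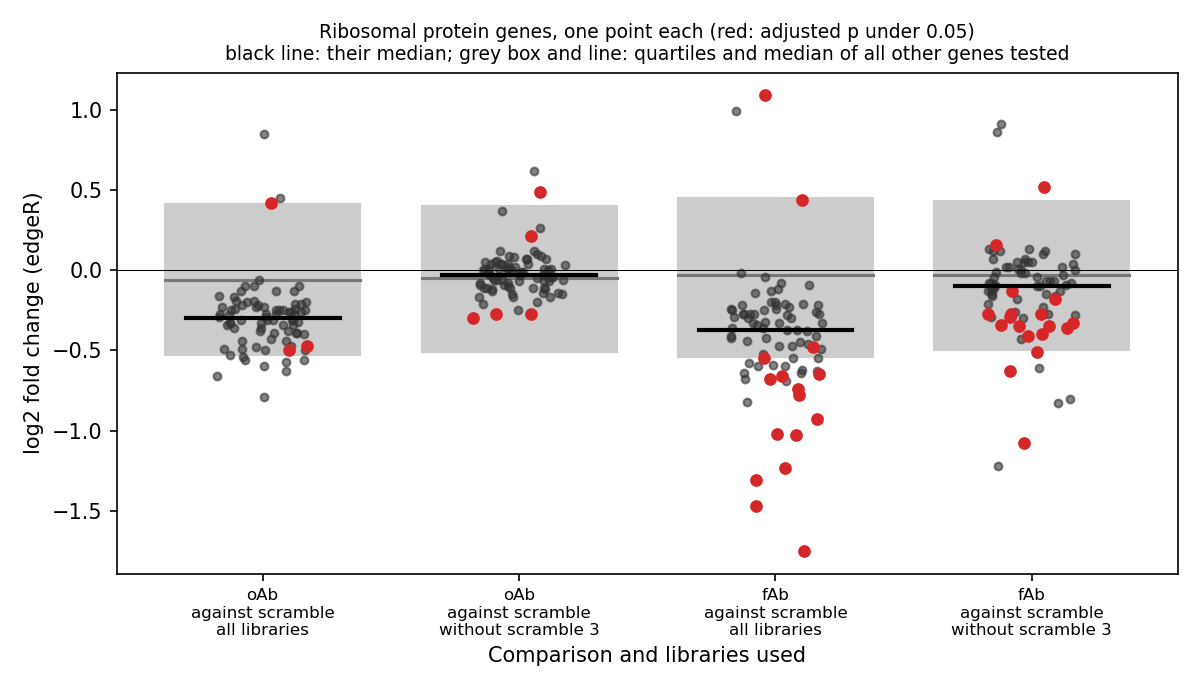
The log2 fold change (y axis) of each ribosomal protein gene that passed the filter in both treatment comparisons, with all libraries and without scramble library 3 (x axis); red points passed an adjusted p of 0.05, black lines are the members' medians, and grey boxes and lines the quartiles and median of all other genes tested. The medians are -0.30 and -0.37 with all libraries and -0.03 and -0.10 without scramble library 3.

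Rpl7l1, Rpl22 and Rpl3 were the members that passed the test in both treatments. The genes lie in mm10 at chr17:46773907-46782672 (Rpl7l1, ENSMUSG00000063888), chr4:152325742-152334071 (Rpl22, ENSMUSG00000028936) and chr15:80077791-80091868 (Rpl3, ENSMUSG00000060036). Rpl7l1, a paralog of the large subunit protein Rpl7 with a known part in assembling that subunit, was 191, 181, 224 and 184 normalised CPM in scramble libraries 1 to 4, 244, 250.4, 279 and 267 in oAb and 241, 257, 262 and 271 in fAb. Every treated library was above every scramble library, scramble library 3 included. It rose by a log2 fold change of 0.42 (SE 0.10, adjusted p = 0.00538) after oAb and 0.44 (SE 0.09, adjusted p = 0.00319) after fAb. The rise was 0.47 (adjusted p = 4.94e-06) after oAb and 0.49 after fAb with the library set as a term and scramble library 3 left out. The value after fAb rests on scramble library 1, the only control of that set. Rpl22, a large subunit protein that the cell can do without and that its paralog Rpl22l1 can replace, was 307, 327, 503 and 311 normalised CPM in scramble libraries 1 to 4, 259.6, 267, 254 and 239.7 in oAb and 241, 249.8, 240.3 and 231 in fAb. Here all treated libraries lay below all scramble libraries, and scramble library 3 was the highest. Rpl22 fell by 0.50 (SE 0.16, adjusted p = 0.0267) on the log2 scale after oAb and by 0.55 (SE 0.16, adjusted p = 0.0175) after fAb. Leaving out scramble library 3 gave -0.30 (adjusted p = 0.00168) and -0.35 (adjusted p = 0.000228), smaller changes with lower adjusted p-values. Rpl3, which lies next to the site where peptide bonds form, was 1939, 1891, 3112 and 2007 normalised CPM in scramble libraries 1 to 4, 1441, 1514, 1739 and 1767 in oAb and 1442, 1503, 1666 and 1639 in fAb. Its treated libraries were likewise all below the scramble libraries. The log2 fold change of Rpl3 was -0.47 (SE 0.18, adjusted p = 0.049) after oAb and -0.48 (SE 0.17, adjusted p = 0.0376) after fAb. Without scramble library 3 it was -0.27 (adjusted p = 0.0214) and -0.27 (adjusted p = 0.00265). With the library set as a term, the fAb libraries stand against scramble library 1 alone. In that fit, with all libraries kept, Rpl22 gave -0.45 (adjusted p = 0.0509) after oAb and -0.30 after fAb. Rpl3 gave -0.48 (adjusted p = 0.0747) and -0.26, and none of these values passed the threshold. Both genes passed it after oAb once scramble library 3 was also left out. Single libraries ended some of these calls: after oAb, Rpl22 did not pass without any one oAb library (log2 fold changes of -0.52 to -0.47), nor Rpl3 without any one oAb library (-0.51 to -0.42) or without scramble library 4 (-0.52). After fAb, Rpl22 did not pass without fAb library 4 (-0.53), nor Rpl3 without any one fAb library (-0.51 to -0.44). Rpl7l1 passed in both comparisons whichever library was left out, but not after oAb under upper quartile scaling (0.25). Within the Timm23 set alone, 3 scramble and 2 oAb libraries, none of the 3 genes passed, at 0.34 (adjusted p = 0.125) for Rpl7l1, -0.52 (adjusted p = 0.154) for Rpl22 and -0.65 (adjusted p = 0.112) for Rpl3. Rpl3 after oAb also missed the threshold with DESeq2 size factors (-0.44), without a filter (-0.45) and with limma voom (-0.44).

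**Figure D3:**
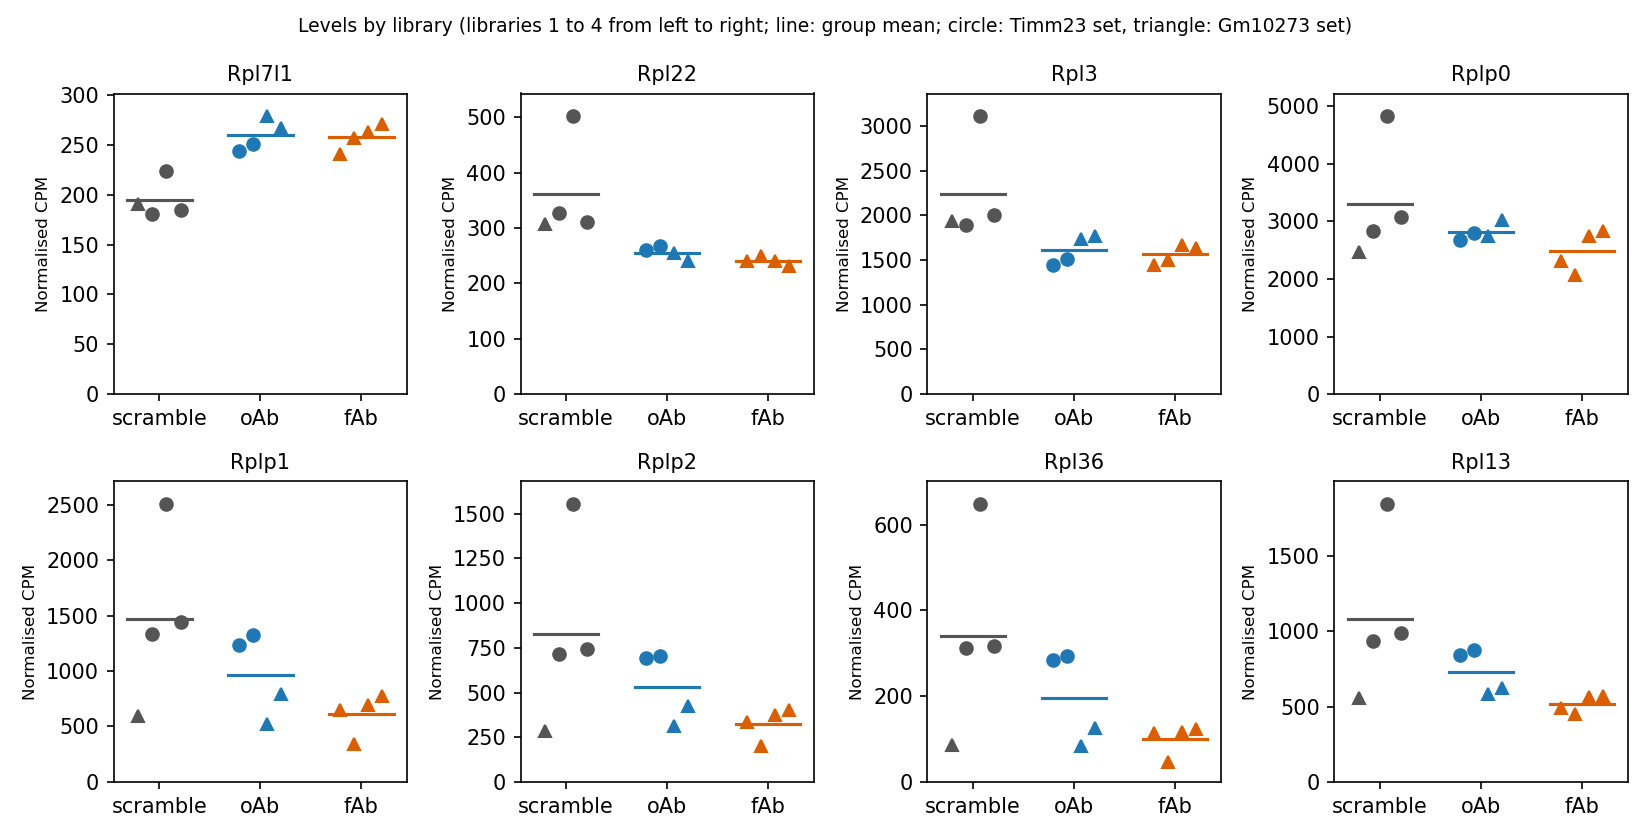
Normalised CPM (y axis, from 0) in every library of scramble, oAb and fAb (x axis, libraries 1 to 4 from left to right) for 8 large subunit genes, with group means as lines, circles for the Timm23 set and triangles for the Gm10273 set. Rpl7l1, Rpl22 and Rpl3 separate by treatment, whereas Rplp1, Rplp2, Rpl36 and Rpl13 separate by set, with scramble library 1 and oAb libraries 3 and 4 near the fAb libraries.

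The stalk of the large subunit, which brings elongation factors to the ribosome, is made of Rplp0 at its base and of dimers of Rplp1 and Rplp2. Per length, Rplp1 and Rplp0 were 2 of the 3 most abundant members in scramble cells, at 8463 ± 3408.5 and 5844 ± 891 TPM (SD, n = 4), with Rps3a1 between them at 6458 ± 806 TPM. Rplp1 was 590.2, 1333, 2510.4 and 1443 normalised CPM in scramble libraries 1 to 4, 1239, 1327, 519 and 789 in oAb and 649, 338, 697 and 774 in fAb. These values fall into a high group, the Timm23 set, and a low group, the Gm10273 set, whatever the treatment, and fAb library 2 is the lowest of all. Rplp2 was 283.5, 714, 1558 and 744 normalised CPM in scramble libraries 1 to 4, 691.5, 703, 313 and 425 in oAb and 333, 199.7, 372 and 399.6 in fAb, with the same division. Rplp0 was 2476, 2827, 4835 and 3074 normalised CPM in scramble libraries 1 to 4, 2681, 2803, 2748 and 3017 in oAb and 2309, 2070.0, 2741 and 2839 in fAb, and here scramble and oAb libraries overlap. In fAb against scramble the log2 fold changes were -1.23 (SE 0.41, adjusted p = 0.0292) for Rplp1 and -1.31 (SE 0.45, adjusted p = 0.0325) for Rplp2, which passed the test. The value for Rplp0 did not pass, at -0.37 (SE 0.21, adjusted p = 0.165). With the library set as a term, Rplp1 and Rplp2 gave 0.11 (adjusted p = 0.884) and 0.25 (adjusted p = 0.732), of the opposite sign. Without scramble library 3 they gave -0.83 (adjusted p = 0.0891) and -0.80 (adjusted p = 0.0985). After oAb, neither passed (-0.60, SE 0.42, adjusted p = 0.263, and -0.63, SE 0.46, adjusted p = 0.28). The TPM ratio of Rplp1 to Rplp0 ran from 0.793 to 1.73 in scramble, from 0.628 to 1.57 in oAb and from 0.544 to 0.935 in fAb, so that the ranges overlap. The fall of Rplp1 also did not pass without scramble library 4 (-1.24) or fAb library 1 (-1.25), 2 (-1.04) or 3 (-1.28), nor that of Rplp2 without scramble library 4 (-1.36) or any one fAb library (-1.41 to -1.14). All fAb libraries are of the Gm10273 set, and apart from the comparison with scramble library 1, set and treatment cannot be told apart in them.

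Rpl36, Rpl13 and Rpl27a, large subunit genes, and Rps26 of the small subunit were also lower after fAb, and their levels differed between the library sets. Rpl36 was 86.7, 311, 649 and 316 normalised CPM in scramble libraries 1 to 4, 283, 294, 83.1 and 126 in oAb and 115, 45.9, 116 and 122 in fAb. Scramble library 1 was below 3 of the 4 fAb libraries. Its log2 fold change in fAb against scramble was -1.75 (SE 0.54, adjusted p = 0.0211). It was 0.25 (adjusted p = 0.775) with a set term and -1.22 (adjusted p = 0.0711) without scramble library 3. Rpl13 was 558, 936.5, 1849 and 986 normalised CPM in scramble libraries 1 to 4, 842, 879, 585 and 621 in oAb and 493, 450.1, 565 and 573 in fAb, again with scramble library 1 among the fAb libraries. It gave -1.02 (SE 0.31, adjusted p = 0.02) after fAb and -0.05 (adjusted p = 0.936) with a set term. Rpl13 kept its call without scramble library 3 at -0.63 (adjusted p = 0.0202). Rpl27a was 656, 908, 1659 and 910.0 normalised CPM in scramble libraries 1 to 4, 847, 872, 659.5 and 667 in oAb and 593, 594.5, 606.5 and 619 in fAb, so that every fAb library was below every scramble library and every oAb library. Its log2 fold change after fAb was -0.74 (SE 0.25, adjusted p = 0.0308). It was -0.07 (adjusted p = 0.896) with a set term and -0.41 (adjusted p = 0.00853) without scramble library 3. The small subunit gene Rps26, whose protein sits where the message leaves the ribosome, was 464, 714, 1568 and 843 normalised CPM in scramble libraries 1 to 4, 684, 746, 468 and 571.5 in oAb and 412, 303, 512 and 490.0 in fAb. It fell after fAb (-1.03, SE 0.34, adjusted p = 0.0289), with -0.06 (adjusted p = 0.932) with a set term and -0.61 (adjusted p = 0.0518) without scramble library 3. Without single libraries, Rpl36 did not pass without fAb library 2 (-1.52), Rpl13 without fAb library 1 (-0.99) or 2 (-0.97), and Rpl27a without any one fAb library (-0.75 to -0.73). Rps26 did not pass without scramble library 4 (-1.06) or fAb library 1 (-1.01), 2 (-0.91) or 4 (-1.09). Over the 80 members, 5 (Rpl27, Rpl36, Rplp1, Rplp2 and Rpl13) were lower by at least 0.5 on the log2 scale both in oAb libraries 3 and 4 against oAb libraries 1 and 2 and in scramble library 1 against scramble libraries 2 and 4, contrasts within a group. All 5 are among the 14 lower in fAb against scramble, and their transcripts had a median GC content of 57.1%, against 50.7% for the other 75. In both contrasts 1 member, Rps12, was higher by at least 0.5 (1.53 and 1.81). The share of all genes past this cut was not determined. Rpl27 and Rps12 are counted here without their copies, described below. Summed with its copy, Rpl27 was 472.9, 487.9, 475.5 and 500.8 normalised CPM in oAb libraries 1 to 4. In scramble libraries 1, 2 and 4 that sum was 376.6, 437.4 and 455.6.

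Few small subunit genes passed the test. None of the 32 passed the test after oAb, with log2 fold changes from -0.66 to 0.45, and 3 were lower after fAb, beside the backgrounds given above. Rps3a1 was 1867, 1799, 3054 and 1839 normalised CPM in scramble libraries 1 to 4, 1763, 1838.5, 2251 and 2139 in oAb and 1759, 1859, 2027.5 and 1976 in fAb, and the groups overlapped. Rps3a1 gave -0.10 (SE 0.19, adjusted p = 0.692) after oAb and -0.13 (SE 0.18, adjusted p = 0.558) after fAb. Rpsa, known also as the laminin receptor, was 2103, 2328.5, 4276 and 2537 normalised CPM in scramble libraries 1 to 4, 2094, 2180.5, 2299.7 and 2427 in oAb and 1909, 1797, 2259 and 2292.5 in fAb, and its fold changes were -0.32 (SE 0.21, adjusted p = 0.237) and -0.41 (SE 0.22, adjusted p = 0.144). Rps4x, whose X-linked gene has a Y-linked partner in humans but not in the mouse, gave -0.23 (SE 0.20, adjusted p = 0.369) and -0.22 (SE 0.19, adjusted p = 0.343). Rps28 was 340.5, 378, 850.4 and 433 normalised CPM in scramble libraries 1 to 4, 340.0, 362, 335 and 379 in oAb and 289, 229, 360.3 and 341 in fAb, and did not pass either test (-0.50, SE 0.26, adjusted p = 0.146, and -0.68, SE 0.29, adjusted p = 0.0726).

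Paralog pairs were compared because a cell may change the make-up of its ribosomes through them. Rpl22l1 was 69.3, 66.6, 97.9 and 63.7 normalised CPM in scramble libraries 1 to 4, 63.8, 68.5, 73.6 and 70.5 in oAb and 67.9, 73.9, 70.7 and 68.6 in fAb, and neither treatment moved it past the threshold (-0.10, SE 0.14, adjusted p = 0.568, and -0.04, SE 0.14, adjusted p = 0.808). As Rpl22 fell, the TPM ratio of Rpl22l1 to Rpl22 was 0.303 ± 0.0194 in scramble, 0.397 ± 0.0351 in oAb and 0.428 ± 0.0108 in fAb (SD, n = 4), with 0.285 to 0.331 in scramble below the lowest treated library at 0.360. The ratio of Rpl7l1 to Rpl7 was 0.111 ± 0.0149, 0.160 ± 0.0122 and 0.155 ± 0.00245 in the same order, and here too no treated library reached down to the scramble libraries. Rpl7 itself was 1269.6, 1145, 1929.8 and 1194 normalised CPM in scramble libraries 1 to 4, 1101, 1133, 1426 and 1389 in oAb and 1202, 1256, 1329 and 1334.5 in fAb, and gave -0.13 (SE 0.18, adjusted p = 0.574) and -0.08 (SE 0.17, adjusted p = 0.718). The ratios were not tested. Rps27l, a paralog of Rps27 that the tumour suppressor Trp53 induces, was 112, 119, 201 and 111 normalised CPM in scramble libraries 1 to 4, 104, 110.1, 118 and 122 in oAb and 102, 106, 111 and 114 in fAb. Its fold changes did not pass (-0.26, SE 0.19, adjusted p = 0.289, and -0.29, SE 0.19, adjusted p = 0.226), nor did those of Rps27 (-0.19, SE 0.20, adjusted p = 0.442, and -0.14, SE 0.19, adjusted p = 0.574), and the TPM ratio of the pair was 0.394 ± 0.0477, 0.374 ± 0.0106 and 0.352 ± 0.0109, with overlapping ranges. Rpl39 gave -0.21 (SE 0.22, adjusted p = 0.436) and -0.20 (SE 0.20, adjusted p = 0.421). Of the paralogs known from the germ line or muscle, Rpl10l and Rpl39l had 0 counts in all libraries and Rpl3l had 2 to 8 counts per library.

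Some members share so much sequence with a copy elsewhere in the genome that their own counts are uncertain, and the rise of Rpl10 after fAb is such a case. Rpl10, whose protein joins the large subunit last, was 199.5, 180.1, 58.2 and 57.9 normalised CPM in scramble libraries 1 to 4, 232, 194, 253.5 and 216 in oAb and 236, 271, 257 and 265 in fAb. Scramble libraries 3 and 4 were low, scramble libraries 1 and 2 close to the treated ones, and the log2 fold changes were 0.85 (SE 0.40, adjusted p = 0.103) after oAb and 1.09 (SE 0.40, adjusted p = 0.0411) after fAb. Its copy Rpl10-ps3 (mm10 chromosome 9, 50344201 to 50344968) is identical to the Rpl10 transcript over the 740 bases compared without gaps. Of the counts of the pair, Rpl10 held 15, 14.3, 2.57 and 4.35% in scramble libraries 1 to 4, 20.7, 17, 17.4 and 14.7% in the oAb and 20.5, 22.3, 18.6 and 20.4% in the fAb libraries. Summed over the pair, the level was 1331, 1261.5, 2268 and 1329 normalised CPM in the scramble libraries, 1122, 1141, 1458.5 and 1466 in oAb and 1153.5, 1214, 1380.3 and 1299.7 in fAb, and scramble libraries 1, 2 and 4 lay within the range of the treated libraries. With the counts of copies added to the members, Rpl10 gave -0.25 (adjusted p = 0.329) after oAb and -0.26 (adjusted p = 0.281) after fAb, so the rise of Rpl10 was not seen in the pair. Rpl10 alone also did not pass without scramble library 3 (0.86) or 4 (0.86), nor without any one fAb library (1.05 to 1.14).

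Rps12 and Rpl27 showed the same kind of division. Rps12 was 130.1, 35.5, 54.1 and 37.8 normalised CPM in scramble libraries 1 to 4, 28.3, 31.9, 262 and 29 in oAb and 88.2, 325.5, 39.7 and 39.2 in fAb, with oAb library 3 and fAb library 2 far above the rest of their groups. Its copy Rps12-ps3 on chromosome 19 is identical over 494 bases and held most counts: at Rps12 stood 14.6, 3.69, 2.98 and 3.9% of the pair in scramble, 3.25, 3.51, 28.7 and 3.08% in oAb and 10.9, 42.7, 4.43 and 4.25% in fAb. Over the pair, the level was 889, 963, 1815 and 969.7 normalised CPM in the scramble libraries, 868, 910.3, 913 and 941 in oAb and 810.0, 762, 897 and 922 in fAb. Apart from scramble library 3 it lay between 762 and 969.7. The log2 fold changes of Rps12 (0.45, SE 0.79, adjusted p = 0.659, and 0.99, SE 0.73, adjusted p = 0.276) became -0.35 (adjusted p = 0.207) and -0.42 (adjusted p = 0.144) with copies added, and none of the 4 passed. Rpl27 was 24.8, 66.9, 126 and 77.1 normalised CPM in scramble libraries 1 to 4, 105.5, 111, 23.8 and 27.9 in oAb and 24.2, 22.9, 32.8 and 23.9 in fAb. Its 50-base words cover all of Rpl27-ps3, and Rpl27 held 6.59, 15.3, 15.5 and 16.9% of the pair in scramble, 22.3, 22.8, 5.01 and 5.57% in oAb and 6.04, 5.92, 7.21 and 5.23% in fAb, the low values being those of the Gm10273 set. Its log2 fold change after fAb, -1.47 (SE 0.41, adjusted p = 0.0124), was -0.26 (adjusted p = 0.356) with copies added and 0.12 (adjusted p = 0.834) with the library set as a term. Rps12, Rpl22l1 and Rpl27 were also the 3 tested members with the lowest TPM in scramble (98.7 ± 77.7, 111 ± 9.16 and 138 ± 61), and of these the values of Rps12 and Rpl27 leave out the counts at their copies.

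Not every copy held most of the counts. Rps27 and its copy Rps27rt are identical over 341 bases, and Rps27 held between 82.8% and 96.3%. How reads that fit several places were counted was not tested.

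**Figure D4:**
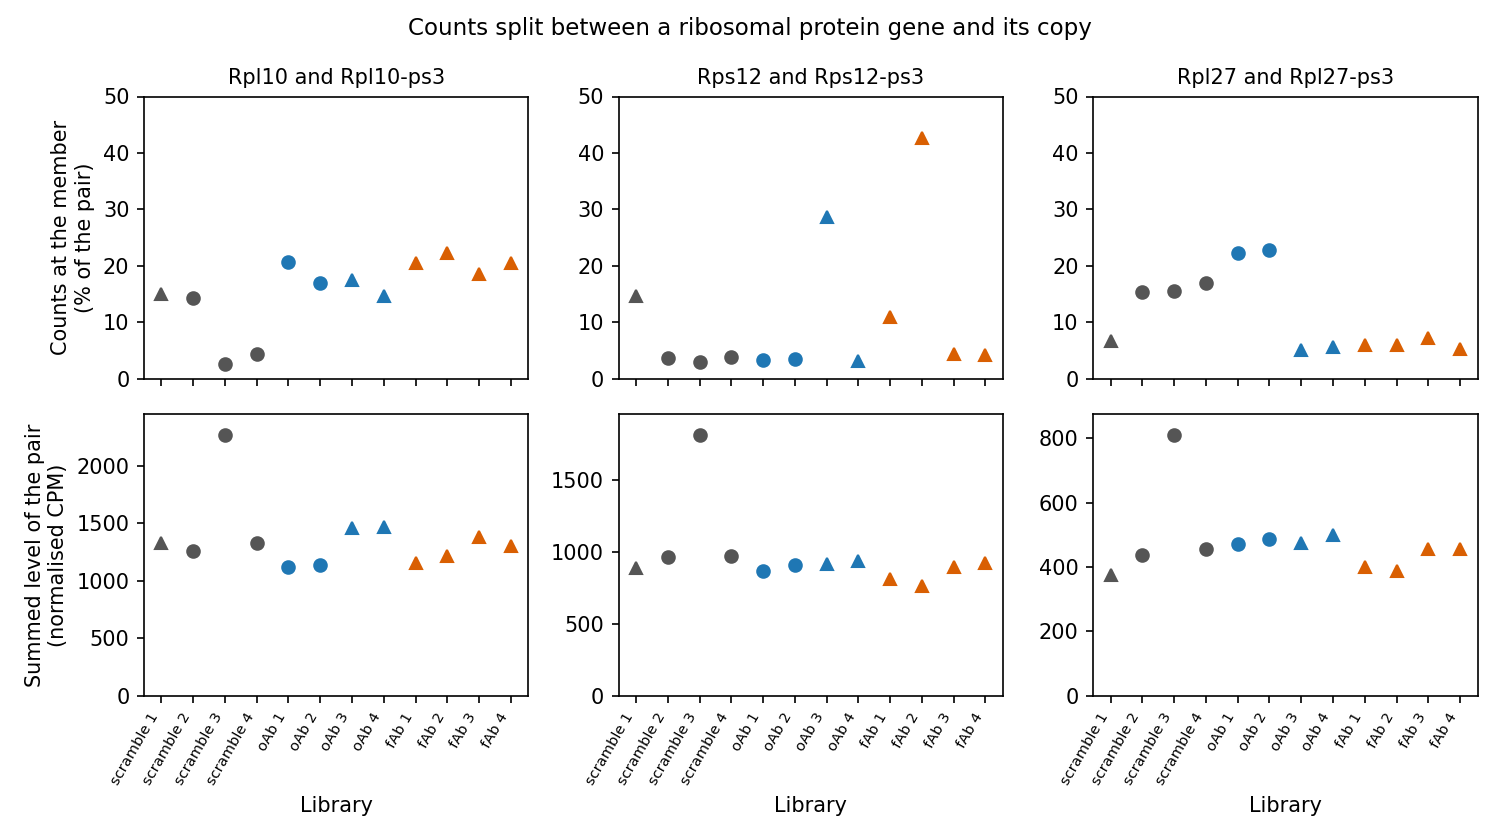
Percent of a pair's counts that stand at the ribosomal protein gene and not at its copy (upper row, y axis 0 to 50) and the summed level of the pair in normalised CPM (lower row, from 0) for Rpl10, Rps12 and Rpl27 in the 12 libraries (x axis; circles Timm23 set, triangles Gm10273 set). The percentages run from 2.57 to 22.3, from 2.98 to 42.7 and from 5.01 to 22.8. Apart from scramble library 3, the sums run from 1121.8 to 1465.6, from 762.0 to 969.7 and from 376.6 to 500.8.

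Scramble library 3 was above the median of the other scramble libraries for 79 of the 80 members. The ratio had a median of 1.81 over the members, from 0.323 for Rpl10 to 2.34 for Rpl38, and of 1.00 over all genes tested. Rpl38, known for its part in translating patterning genes in the embryo, was 248, 242, 579.9 and 268 normalised CPM in scramble libraries 1 to 4, 240.5, 256, 297 and 287 in oAb and 231, 236, 287.5 and 264 in fAb, so that scramble library 3 stands alone. Next in the order were Rps28 at 2.25 and Rps26 at 2.2, and at the low end above Rpl10 were Rpl7l1 at 1.22 and Rps12 at 1.43. The ratios of Rpl10 and Rps12 leave out the counts at their copies. Summed over the pair, scramble library 3 was at 2268 for Rpl10, against 1261.5 to 1331 in the other scramble libraries. For Rps12 it was at 1815, against 889 to 969.7. The members' transcripts are short, with a median of 756 bases against 2852 for the other genes tested. Over the 10947 other genes, the log2 difference of scramble library 3 from the other scramble libraries went with log2 transcript length at r = -0.61 and with GC content at r = 0.52, and over the members at r = -0.20 and 0.33. These are correlations across genes of the same libraries, which are not independent. With offsets for length and GC content in the fit, the members' median log2 fold change was -0.04 after oAb and -0.08 after fAb. In that fit 2 members were higher and 3 lower after oAb, and the 3 include both lower calls made without offsets. After fAb 6 were higher and 14 lower, and 11 of these were among the 14 lower without offsets, Rpl3, Rpl13, Rpl22 and Rpl28 included. Of all genes, 63.7% and 66% were called in these fits, in either direction. Within the oAb group, libraries 3 and 4 minus libraries 1 and 2 went with GC content at r = -0.35 over both the members and the other genes.

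**Figure D5:**
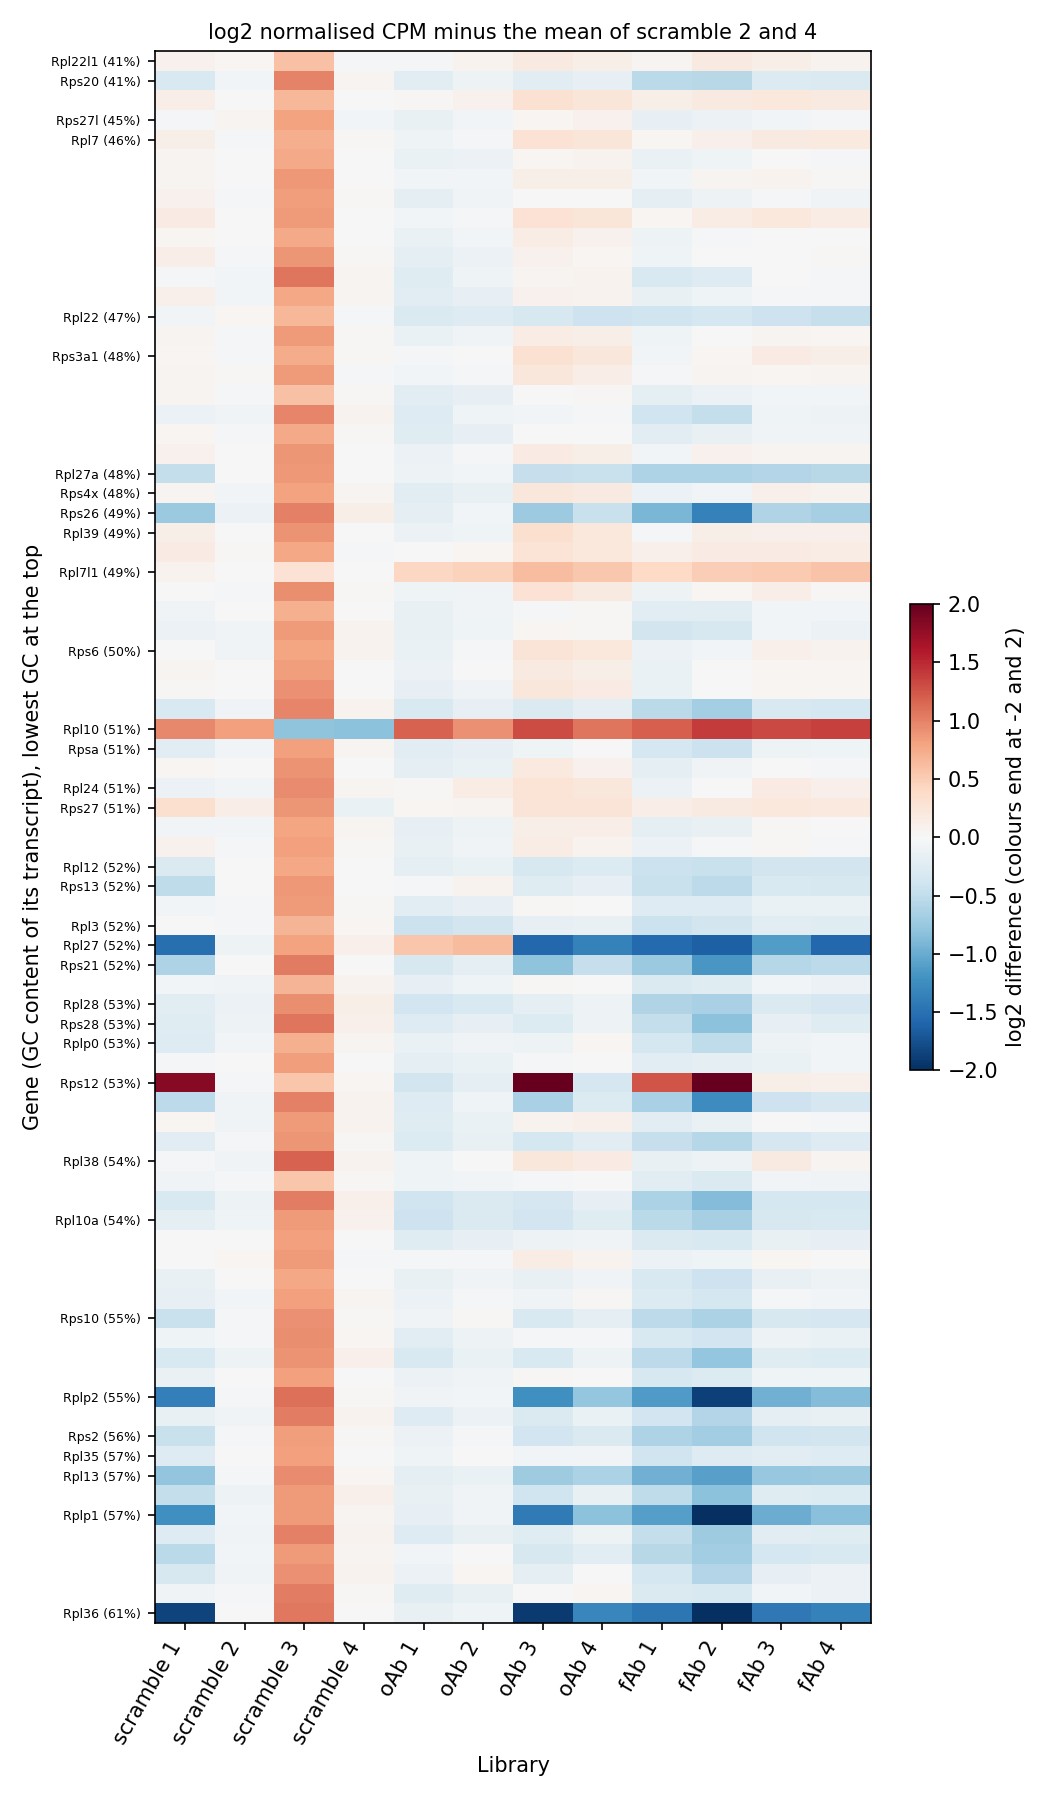
The log2 of normalised CPM (plus 0.5) of the 80 members that passed the filter (rows, ordered by the GC content of their transcript, lowest at the top, with labels for members named in the text) in the 12 libraries (columns), minus the mean of scramble libraries 2 and 4; red is higher and blue lower. Scramble library 3 is red in nearly every row, Rpl7l1 is red in the treated libraries, and Rplp1, Rplp2, Rpl36 and Rpl27 are blue in scramble library 1, oAb libraries 3 and 4 and the fAb libraries.

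Between the treatments no member passed the test, and no gene of all 10878 did (0.00% called; 1391 genes and 16 of the 80 members had an unadjusted p under 0.05 in edgeR). DESeq2 called 16 genes, Rpl35 among them, and limma voom 0. The members' log2 fold changes in fAb against oAb had a median of -0.10, from -1.37 to 0.49, beside -0.01 for all genes, and 71 of 80 were below 0. For 7 members (Rpl12, Rpl13, Rpl27a, Rpl35, Rps10, Rps13 and Rps20) all fAb libraries were below all oAb libraries, and for none above, against 3.25% and 3.05% of all genes tested. The members with the smallest p were Rpl35, Rps13 and Rps10. Rpl35 was 278, 331, 589.9 and 334 normalised CPM in scramble libraries 1 to 4, 312, 333, 319.8 and 319.9 in oAb and 252.5, 278, 284 and 278 in fAb, and its log2 fold change in fAb against oAb was -0.23 (SE 0.05, adjusted p = 0.375). These values leave out the counts at its copies, of which Gm2000 has 85.1% of its 50-base words in Rpl35. Of the counts of Rpl35 and its copies, Rpl35 held 47.1, 49.2, 49 and 52.7% in oAb and 48.6, 49.2, 48.7 and 48.1% in fAb. Rps13 was 363, 520.5, 952 and 517 normalised CPM in scramble libraries 1 to 4, 508, 543.5, 439.5 and 463 in oAb and 379.6, 362, 418 and 416 in fAb, at -0.31 (SE 0.08, adjusted p = 0.375). Rps10, a small subunit protein that is marked with ubiquitin when ribosomes collide, was 424, 571, 1090.4 and 589.9 normalised CPM in scramble libraries 1 to 4, 553.5, 589.7, 468 and 511 in oAb and 405, 376, 463 and 459.7 in fAb, at -0.32 (SE 0.09, adjusted p = 0.375). All fAb libraries but only 2 of the oAb libraries are of the Gm10273 set, and with a set term the members' median was -0.16, with 0 called. In that fit 78 of 80 members were below 0. An unadjusted p under 0.05 in edgeR was found there for 44 members and for 1478 of all genes.

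The 13 members with a C and 4 pyrimidines at a listed start had fold changes close to those of the other members. Their median log2 fold change was -0.31 after oAb and -0.42 after fAb, beside -0.27 and -0.34 for the 47 tested members with another listed start. None of the 13 passed the test after oAb, and 3 were lower after fAb (Rpl28, Rplp2 and Rps21). Of the 47, 1 was higher and 1 lower after oAb and 2 were higher and 7 lower after fAb. Of the 20 members without a RefSeq window none was higher, 1 was lower after oAb and 4 after fAb. Over all genes 25.2% were higher and 27.0% lower after oAb and 27.6% and 28.8% after fAb. The 25 other genes known to carry a TOP start had a median of -0.29 after oAb (1 higher, 5 lower) and -0.24 after fAb (2 higher, 7 lower), and -0.09 (5 higher, 5 lower) and -0.08 (6 higher, 8 lower) without scramble library 3. With the library set as a term they had -0.24 (1 higher, 3 lower) and 0.04 (0 higher, 1 lower), a median of the opposite sign after fAb. Among them Eif4b, an initiation factor that helps unwind messages, had the smallest adjusted p after oAb, at 1037 ± 49.1, 549 ± 42.1 and 552 ± 21.2 normalised CPM (SD, n = 4) in scramble, oAb and fAb and a log2 fold change of -0.92 (SE 0.10, adjusted p = 3.7e-05) after oAb.

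Many genes that build ribosomes rose after both treatments. Of 58 ribosome biogenesis genes 33 were higher and 0 lower after oAb (median log2 fold change 0.35), and 39 and 0 after fAb (0.39), beside the 25.2% and 27.6% of all genes that were higher. Without scramble library 3 these became 44 and 49 higher and 0 lower, beside 31.4% and 34.2% of all genes higher. With the library set as a term 33 and 23 were higher, beside 25.3% and 18.2% of all genes. With scramble library 3 also left out 45 and 44 were higher and 2 and 0 lower. In that fit 34.6% and 30.3% of all genes were higher and 36.4% and 27.8% lower. Sbds, which readies the new large subunit for joining, was at 38.4 ± 4.25, 74.1 ± 5.95 and 69.7 ± 1.99 normalised CPM (SD, n = 4) in scramble, oAb and fAb. Lsg1, a GTPase of the same late step, was at 55.4 ± 3.83, 91.8 ± 4.26 and 90 ± 0.758, and Utp4, of the small subunit's early assembly, at 139 ± 9.24, 222 ± 15.1 and 230.4 ± 3.36. After oAb their log2 fold changes were 0.95, 0.73 and 0.68, with adjusted p-values of 6.93e-05, 9.3e-05 and 0.000173. RNA polymerase I, which makes ribosomal RNA, gave 3 of 15 genes higher and 2 lower after either treatment, and 5 and 2 without scramble library 3. The shares of all genes that were lower were 27.0% and 28.8%, and 32.9% and 33.8% without scramble library 3. Ubtf, the factor that opens the ribosomal DNA for it, fell from 228.5 ± 23.1 to 127.5 ± 3.21 after oAb and 121 ± 6.95 after fAb. The subunit gene Polr1a rose from 168 ± 20.1 to 271 ± 35.1 and 263 ± 19.6.

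Translation factors were mixed. Over all genes 25.2% were higher and 27.0% lower after oAb and 27.6% and 28.8% after fAb. With the library set as a term these shares were 25.3% and 26.7% after oAb and 18.2% and 16.5% after fAb. Without scramble library 3 they were 31.4% and 32.9% after oAb and 34.2% and 33.8% after fAb. Of 53 initiation factor genes 21 were higher and 9 lower after oAb and 18 and 9 after fAb, and without scramble library 3 30 were higher in each, with 10 and 11 lower. With the set term 20 were higher and 8 lower after oAb and 13 and 4 after fAb. Eif2ak2, the kinase PKR that halts initiation when double-stranded RNA is present, rose from 42.5 ± 11.3 to 212 ± 17.1 and 235 ± 6.57 normalised CPM. Of 13 elongation and termination genes 3 were higher and 2 lower after oAb and 4 and 5 after fAb, where the set term gave 3 and 2. Eef2k, the kinase that slows elongation, stood at 20.1 ± 1.39, 9.65 ± 0.74 and 9.94 ± 0.479 in the 3 groups and passed the test as lower after oAb (adjusted p = 3.23e-05). Among 25 tested genes of mTORC1 and of TOP message control, 7 were higher after each treatment, 6 lower after oAb and 8 lower after fAb, shares near those of all genes, and after fAb the set term gave 5 higher and 5 lower. Sesn1, which restrains mTORC1 when leucine is short, went from 127 ± 12.7 to 8.72 ± 0.549 after oAb and 10.5 ± 1.03 after fAb. Deptor, an inhibitor bound to the complex, went from 59.5 ± 19.1 to 4.49 ± 0.115 and 6.71 ± 0.473. Of 20 genes of ribosome quality control 6 were higher and 2 lower after oAb and 8 and 3 after fAb. These became 9 and 3 in each without scramble library 3, and 4 and 2 after fAb with the set term. Ascc3, a helicase that splits collided ribosomes, stood at 59.7 ± 19, 222 ± 14.8 and 234 ± 4.33. The 15 interferon-induced genes of translation control included 11 higher and 3 lower after either treatment, with a median of 3.95 after oAb. Ifit1, which binds foreign messages, stood at 1.23 ± 0.438, 554 ± 82.4 and 538 ± 38.6.

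The proteins of the mitochondrial ribosome and of the respiratory chain were set beside the cytosolic ribosomal proteins. Over all genes 25.2% were higher and 27.0% lower after oAb, and 27.6% and 28.8% after fAb. Without scramble library 3 these shares were 31.4% and 32.9% after oAb and 34.2% and 33.8% after fAb. With the library set as a term they were 25.3% and 26.7% after oAb, and with scramble library 3 also left out 34.6% and 36.4%. After fAb the same 2 fits gave 18.2% and 16.5%, and 30.3% and 27.8%. The median log2 fold changes of 78 mitochondrial ribosomal protein genes were -0.14 after oAb (2 higher, 10 lower) and -0.19 after fAb (3 higher, 18 lower), and 0.01 (22 higher, 12 lower) and -0.05 (21 higher, 22 lower) without scramble library 3. With the library set as a term, the 4 fAb libraries stand against scramble library 1 alone. Calls lost there cannot tell a weaker test from a smaller change. In that fit the mitochondrial ribosomal medians were -0.10 (3 higher, 6 lower) after oAb and 0.07, of the opposite sign, after fAb. With scramble library 3 also left out they were 0.04 (30 higher, 17 lower) and 0.07. For 72 nuclear genes of the respiratory chain and ATP synthase they were -0.39 (0 higher, 10 lower) and -0.50 (0 higher, 28 lower), and -0.13 (1 higher, 17 lower) and -0.21 (3 higher, 35 lower) without scramble library 3. The set term gave -0.33 (0 higher, 4 lower) and -0.10 (0 higher, 0 lower), and with scramble library 3 also left out -0.11 (3 higher, 22 lower) and -0.10 (1 higher, 9 lower). Scramble library 3 was above the other scramble libraries by a median log2 ratio of 0.65 and 0.83 in these lists and 0.86 in the cytosolic ribosomal proteins. For the mitochondrially encoded transcripts that ratio was 0.03, and 7 of 15 were lower and 2 higher after oAb, 10 and 2 after fAb, with medians of -0.42 and -0.43. The set term gave 8 lower and 1 higher after oAb and 5 and 0 after fAb, with medians of -0.47 and -0.49. Replication-dependent histones, whose messages lack a poly(A) tail, gave 3 of 9 lower after oAb and 4 of 6 after fAb and none higher, with medians of -1.16 and -1.19. With the set term 3 and 1 were lower, with medians of -0.70 and -0.55. The part of RNA quality in the members' values was not tested.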

How the data were processed

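RNA of IMG cells was read with a stranded mRNA kit, per the labels' protocols, and analysed in 12 libraries. The authors deposited tables of 41325 genes with read counts, TPM and RPKM per gene. The file headers call the reads trimmed, and mm10 is the build in the submitters' processing notes. Which aligner and counter were used, with which strand setting and which rule for reads with several places, is not given in the sources used. The deposited counts were tested as they stand, the deposited TPM gave levels per length and the deposited RPKM were not tested. The 2 tables list genes in different orders and were joined by identifier.

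Groups came from the labels. Each comparison was fitted on its 8 libraries in edgeR 4.0.16 (R 4.3.3), with filterByExpr at a minimum count of 10, TMM, robust quasi-likelihood tests and Benjamini-Hochberg adjustment over all genes tested. A gene was called at an adjusted p under 0.05; SE is the log2 fold change divided by the square root of F. Normalised CPM use TMM over all 12 libraries. DESeq2 1.42.0, limma 3.58.1, other scalings and filters, left-out libraries, the replicate block, the library set and sums of gene copies were alternatives. The edgeR step was tested on simulated data. Copies were found by 50-base words, with at least 50% of a copy's words in the member, in GENCODE M21 transcripts, the source of lengths and GC content.

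Members named with values are up to 8 per treatment comparison with the smallest adjusted p, the 3 with the smallest p between the treatments, fixed paralogs and stalk genes, the 3 highest and lowest by TPM, and the 3 highest and lowest by the ratio of scramble library 3 to the other scramble libraries. At most 3 genes were named per related list. Members and lists were chosen with earlier results of these data known. Rps4l was not analysed here, and 1 of the members called lower after fAb is not reported by name.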

Additional observations from a re-analysis of the deposited data

Results flagged for a closer look

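In 81 groups of 4 libraries, the highest or lowest library was compared with its nearest neighbour. In 14 the gap took a larger part of the group's range than Dixon's critical value for 4 samples. Chance alone gives this in about 1 in 20 groups that are independent. These groups share the same 12 libraries, and some members were named by the ratio of scramble library 3. The 14 therefore cannot be set against that rate. Scramble library 3 was the highest of its group in 10 of the 14. They were the share of counts at ribosomal protein genes (11.9%) and the normalised CPM of Rpl22 (502.9), Rpl22l1 (97.9), Rpl3 (3112.0), Rpl7 (1929.8), Rpl38 (579.9), Rpl39 (625.6), Rps3a1 (3054.4), Rps4x (2494.7) and Rps27l (200.9). Among the treated libraries, Rps12 stood alone in oAb library 3 at 262.2, where it held 28.7% of the counts of its pair with Rps12-ps3. Rpl27 was highest in fAb library 3 at 32.8, Rpl36 lowest in fAb library 2 at 45.9 and Rpl39 lowest in fAb library 1 at 328.2.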

How the results depend on the processing

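Beside the 1 higher and 2 lower members after oAb, lower members numbered 1 with DESeq2 size factors, without a filter and with limma voom, 12 under upper quartile scaling and 0 with the library set as a term, within the Timm23 set and at a threshold of 0.01. In the same order 2840, 3034, 2880, 4015, 2947, 1816 and 2095 of all genes were lower. Higher members after oAb numbered 0 under upper quartile scaling and within the Timm23 set, and 2 with DESeq2, with all 12 libraries in 1 fit and with length and GC offsets. Of all genes 2127, 1976, 3072, 3154 and 3715 were higher there. With a set term and scramble library 3 left out they were 3 higher and 4 lower, beside 34.6% and 36.4% of all genes. Beside the 2 higher and 14 lower after fAb, lower members numbered 48 under upper quartile scaling, 23 with DESeq2, 33 with all 12 libraries, 0 with a set term and at 0.01, and 2 with a set term and scramble library 3 left out, with a median of -0.02 in both set fits. In the same order 4361, 3278, 3752, 1824, 2291 and 3110 of all genes were lower. Higher members after fAb numbered 1 under upper quartile scaling, with a set term, with it and without scramble library 3, with copies summed by name or by words and at 0.01, and 6 with length and GC offsets. Of all genes 2273, 2020, 3380, 3049, 3048, 2389 and 3842 were higher there. DESeq2 called 1 member lower in fAb against oAb. Leaving out 1 library gave 1 to 2 higher and 0 to 11 lower after oAb, and 1 to 2 higher and 2 to 31 lower after fAb. Medians then ran from -0.39 to -0.03 after oAb, -0.50 to -0.10 after fAb and -0.14 to -0.06 between the treatments, with 0 genes called there. All genes past the threshold then numbered 4962 to 7174 after oAb and 5517 to 7598 after fAb. The mean shares of counts ran from 7.38 to 9.02%, 5.77 to 5.86% and 5.37 to 5.53% in scramble, oAb and fAb. As summed TPM the shares were 13.9%, 10.0% and 9.48%, and for oAb 5.98% outside mitochondrially encoded genes and 6.02% with copies by name.

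Some single log2 fold changes took the opposite sign, most of them small. After oAb these were Rpl27 0.23, Rpl35 0.12, Rps13 0.07, Rps10 0.06, Rps27 0.14, Rpl39 0.04, Rps3a1 0.06 and Rpl38 0.14 with length and GC offsets, Rpl27 0.20 and Rps12 -0.25 with a set term, Rpl27 0.41, Rpl36 0.03, Rpl35 0.06, Rps13 0.14, Rps10 0.07, Rpl22l1 0.04, Rps27 0.01, Rpl7 0.02, Rplp0 0.02, Rplp2 0.11, Rps3a1 0.09, Rps12 -0.08 and Rpl38 0.07 with it and without scramble library 3, Rpl27 0.28 and Rps12 -0.49 within the Timm23 set, Rps12 -0.12 with limma voom, and Rpl10 -0.25 and Rps12 -0.35 with copies summed by name or by words. After fAb they were Rpl35 0.08, Rpl22l1 0.02, Rps27 0.21, Rpl39 0.07, Rps3a1 0.02 and Rpl38 0.15 with the offsets, Rpl27 0.12, Rpl36 0.25, Rplp1 0.11, Rpl35 0.03, Rps13 0.17, Rps10 0.06, Rpl22l1 0.07, Rps27l 0.01, Rpl39 0.00, Rpl7 0.07, Rplp0 0.06, Rplp2 0.25, Rpsa 0.03, Rps3a1 0.08, Rps12 -0.01 and Rpl38 0.09 with a set term, Rpl27 0.11, Rpl36 0.25, Rplp1 0.11, Rpl35 0.03, Rps13 0.17, Rps10 0.06, Rpl22l1 0.08, Rps27l 0.01, Rpl39 0.00, Rpl7 0.07, Rplp0 0.06, Rplp2 0.25, Rpsa 0.03, Rps3a1 0.08, Rps12 -0.01 and Rpl38 0.09 with it and without scramble library 3, and Rpl10 -0.26 and Rps12 -0.42 with copies summed either way. Leaving out 1 library turned, with the range over the libraries left out, Rpl27 (-0.48 to 0.26), Rpl35 (-0.38 to 0.03), Rps13 (-0.44 to 0.07), Rps10 (-0.50 to 0.01), Rpl22l1 (-0.17 to 0.06), Rps27 (-0.32 to 0.04), Rpl39 (-0.30 to 0.05), Rpl7 (-0.21 to 0.07), Rps4x (-0.32 to 0.01), Rplp0 (-0.34 to 0.01), Rps3a1 (-0.17 to 0.12), Rpl38 (-0.43 to 0.10) and Rps12 (-1.11 to 1.05) after oAb and Rpl22l1 (-0.11 to 0.12), Rps27 (-0.27 to 0.10), Rpl39 (-0.30 to 0.07), Rpl7 (-0.18 to 0.13), Rps4x (-0.33 to 0.02), Rps3a1 (-0.22 to 0.10), Rpl38 (-0.50 to 0.05) and Rps12 (-0.18 to 1.57) after fAb. The cause was not tested, except that summing copies changes only where reads are counted.

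Replicate numbers did not clearly pair the libraries: correlations of same-numbered deviations from the group means ran from -0.25 to 0.242. Scramble library 3 and the library sets also enter these deviations, so the correlations cannot exclude a pairing. With the replicate block, 2 members were lower after oAb (median -0.24, Rps12 -0.14), 21 after fAb (median -0.32) and 0 between the treatments. Of all genes 2557, 3153 and 0 were lower there. The offsets, the sums of copies by shared words, the fit within the Timm23 set and the set term without scramble library 3 were chosen after seeing the data. Rpl10l and Rpl39l, at 0 counts in all 12 libraries, and Rpl3l, at 2 to 8 counts, did not pass the filter and were not tested.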
